A study of Mus musculus with 6 samples.

Results

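Myoglobin (Mb) and carbonic anhydrase 3 (Car3), a pair of abundant soluble proteins of slow oxidative muscle fibres, were examined in the soleus of mice deficient in tenascin-C. The members were the probes that the platform annotation assigns to either gene. There was 1 probe for each, 10N for Mb and 23N for Car3. These are 2 of the 203 genes named on the array, which carries 223 probes.

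All animals formed 1 group. They were tenascin-C deficient (Null) mice of the 129/SV strain, and their soleus had been reloaded for 1 day. The deletion and the reloading are shared by every sample. The sources used here do not give age, sex or the design of the null allele, and wild-type or unloaded muscle was not analysed here. RNA came from cryosections of the muscle belly, was labelled with [alpha-32P]dATP by reverse transcription from gene-specific primers, and was measured on 6 arrays, described as biological replicates. Arrays are numbered in the order of the sample records. With 1 array for each animal, a difference of the animal cannot be told apart from one of its array, and with 1 group no comparison of conditions exists.

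Mb is the haem protein that binds oxygen in the cytoplasm of heart and skeletal muscle fibres. It stores oxygen and eases its diffusion to the mitochondria, and it gives slow muscle its red colour. Car3 is a cytosolic carbonic anhydrase with low activity for the hydration of carbon dioxide. It is among the most abundant soluble proteins of slow fibres, and adipocytes also express it strongly. Both genes belong to the programme of slow, fatigue-resistant fibres that the soleus, a postural muscle of the calf, depends on.

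The upstream sequence of Mb is shown because Myf6, a muscle transcription factor that binds E-boxes, was measured on the same arrays and is described further on. The table of RefSeq promoters (build GRCm38.p6) lists 3 starts for Mb. The window printed holds the 250 bases before the start that lies farther upstream of 2 neighbouring starts, at chr15:77022788-77023037 on the minus strand. Capitals mark E-boxes, with the letters CANNTG, searched on both strands, which read alike for this motif.

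Mb upstream: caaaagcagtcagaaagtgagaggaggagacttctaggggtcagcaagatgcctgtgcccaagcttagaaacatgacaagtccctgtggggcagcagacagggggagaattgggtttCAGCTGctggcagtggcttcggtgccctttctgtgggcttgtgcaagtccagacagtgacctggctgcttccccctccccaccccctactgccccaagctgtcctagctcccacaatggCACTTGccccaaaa

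The window holds 2 E-boxes, CAGCTG beginning 133 bases and CACTTG beginning 14 bases before the start. At least 2 such matches occur in 31.8% of the 32851 windows of this length in the table. These matches are a description of letters and not of binding.

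Values are read against the lowest intensity of the same array, because no background subtraction is visible in the deposited values. That lowest intensity ran from 0.0006 to 0.003. Multiplied over 221 probes, it made up 66.6% of the summed signal on arrays 1 and 2 and between 13.3% and 39.9% on arrays 3 to 6. The unnamed probe 1M and the ribosomal RNA probe 1O were left out of these sums, and together gave 41.3 and 40.5 on arrays 1 and 2 against 0.876 to 3.21 on the others. Arrays 1 and 2 thus stood apart and left little range above the lowest intensity. That split was made with the data in view, so the shares of both members and their main ratios are given with and without these arrays. Gene lists, markers and some spreads are mostly read on arrays 3 to 6 only. The Tnc probe (4L), for the deleted gene, lay at 4.07 and 4.5 times the lowest on arrays 1 and 2. On arrays 3 to 6 it lay between 1.11 and 2.78 times. Its identifier may place it near the bright probe 1M, and spill from 1M was not tested. The sources used here do not say whether this probe lies in the deleted part, and its signal does not check the genotype.

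The intensity of Mb was 0.0075 on array 1 and 0.0076 on array 2. On arrays 3, 4, 5 and 6 it was 0.0546, 0.0453, 0.0413 and 0.0638. These were 2.5 and 2.53 times the lowest intensity on the first pair, and 30.3, 50.3, 34.4 and 106 times on the other 4. The Mb signal was therefore well clear of the lowest on the last 4 arrays, and just above 2 times it on the first pair.

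Car3 gave 0.00486 and 0.0044 on arrays 1 and 2, and 0.0132, 0.021, 0.0116 and 0.0169 on arrays 3, 4, 5 and 6. Against the lowest intensity these were 1.62 and 1.47 times, then 7.33, 23.3, 9.67 and 28.2 times. Car3 was thus measured well above the lowest on arrays 3 to 6, while on arrays 1 and 2 it lay close to it. There a step of 0.0001, the place to which nearly all values of the table are given, was worth 5.38% and 7.14% of the Car3 value above the lowest, against at most 0.962% on arrays 3 to 6.

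A probe was said to pass where arrays 3 to 6 each gave at least 2 times their lowest intensity. Both members passed, as did 30 of 221 probes (13.6%). At 3 times the lowest both still passed, among 21 of 221 probes (9.5%). Only Mb of the pair reached 2 times on all 6 arrays, among 5 of 221 probes (2.26%). The count of 30 was 47 without array 3, the array with the highest lowest intensity among the 4.

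To take the differing lowest intensity out of the values, it was subtracted on each array. The remainder, called the net value, was expressed as a percent of the summed net values of the 221 probes. On this scale Mb took 1.35% and 1.38% on arrays 1 and 2, and 8.79%, 5.55%, 5.47% and 7.29% on arrays 3 to 6. The mean was 6.78% ± 1.59 (SD, n = 4) on arrays 3 to 6 and 4.97% ± 3.05 (SD, n = 6) on all arrays. Array 3 was the highest for Mb and array 5 the lowest of the 4, and none of the 4 overlapped arrays 1 and 2.

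Car3 took 0.56% and 0.421% of the net signal on arrays 1 and 2. It took 1.9%, 2.51%, 1.42% and 1.88% on arrays 3, 4, 5 and 6, with means of 1.93% ± 0.45 (SD, n = 4) on these and 1.45% ± 0.821 (SD, n = 6) on all arrays. For Car3 array 4 was the highest of the 4, and arrays 3 and 6 were close to each other.

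The low position of the members on arrays 1 and 2 was shared by the myosin probes. The net values of the 4 myosin heavy chain probes (Myh7, Myh1, Myh2 and Myh4, the motor proteins of slow and fast fibres) together made up 2.83% and 3.06% on arrays 1 and 2 and between 10.3% and 16.7% on arrays 3 to 6. Of all 221 probes, 28 (12.7%) had a higher percent of net signal on each of arrays 3 to 6 than on either of arrays 1 and 2, both members among them. On arrays 1 and 2 the probe for Pole2 (3M), a DNA polymerase subunit, took 17.5% and 14.6% of the net signal. The probes for Ucp3 (3O), Top1 (5M), Dgat1 (4N) and Tnc (4L) were also among the 6 highest on array 1. Their identifiers may place these probes near the bright probes 1M and 1O, and spill from 1M or 1O was not tested. All of them enter the sum by which the Mb and Car3 percents are divided. For the low shares on arrays 1 and 2, a difference of the array cannot be told apart from one of the muscle. In bulk tissue RNA, fewer fibres of a type and less RNA per fibre cannot be told apart either.

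**Figure D1:**
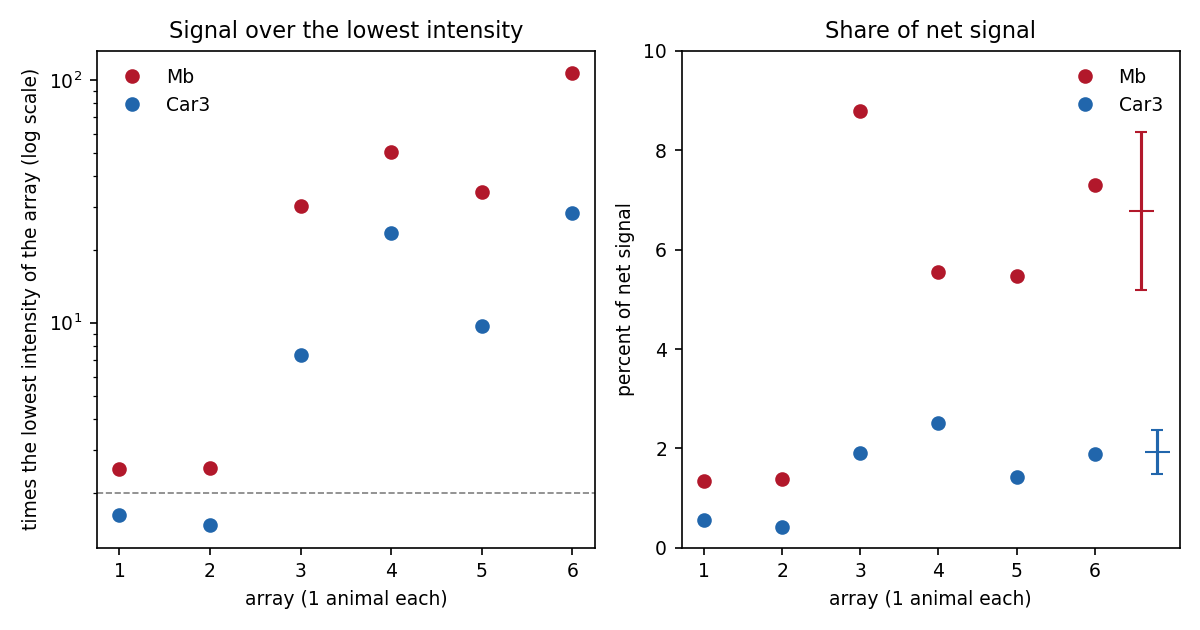
Mb (red) and Car3 (blue) on each of 6 arrays, as times the lowest intensity of the array (left, log axis, dashed line at 2 times) and as percent of the net signal (right, with the mean ± SD of arrays 3 to 6 beside array 6). Both genes stand low on arrays 1 and 2, Mb is highest in percent of net signal on array 3 (8.79%) and Car3 on array 4 (2.51%).

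The spread of the members between arrays was set against that of probes of like signal with limma's variance test, fitted on the 197 probes above the lowest intensity on every array. The SD of log2 intensity was 1.43 for Mb, around a mean of −5.22 (n = 6), and 0.94 for Car3, around a mean of −6.61 (n = 6). Probes of like signal had a fitted SD of 1.54 at the level of Mb and 1.06 at that of Car3. Neither gene passed as more variable than such probes (limma adjusted p = 0.874 for each), while 4 of 197 probes (2.03%) passed. These 4 were Top1, Tnc, Dgat1 and Fgfr3, and Top1, Tnc and Dgat1 were among the 6 highest on array 1. The split of arrays 1 and 2 enters all these SDs, so spread between animals was not separated from it. Few probes inform the fit where Mb lies, since 2 were brighter on average; for Car3 the number was 11.

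**Figure D2:**
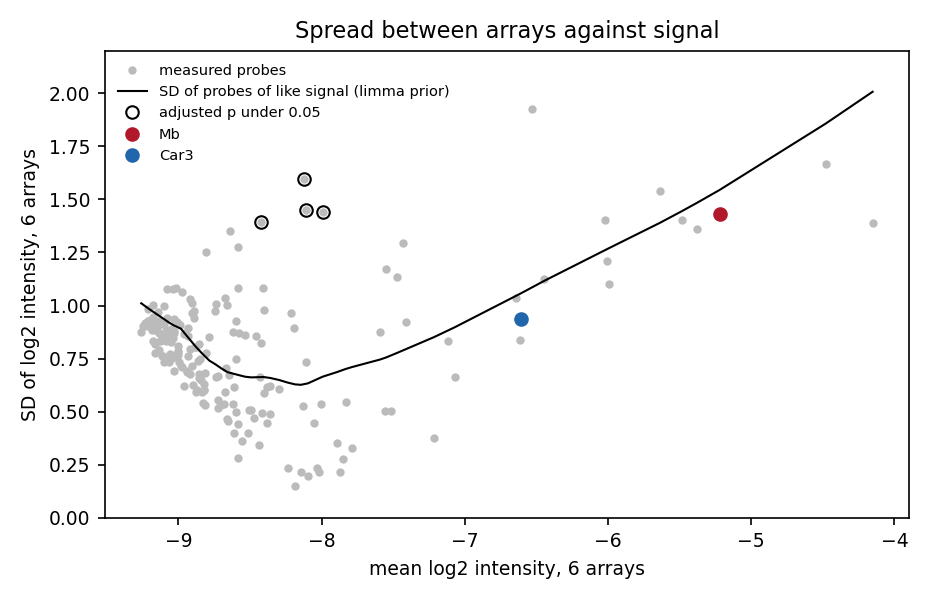
Each point is 1 of 197 measured probes, placed by its mean log2 intensity and its SD over 6 arrays; the line is the SD that limma fits for probes of like signal and open circles mark the 4 probes with adjusted p under 0.05. Mb (SD 1.43) and Car3 (SD 0.94) both lie just under the line.

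Within arrays 3 to 6 the spread of both genes was below the middle of the 30 probes that passed. The SD of log2 percent of net signal was 0.33 for Mb and 0.34 for Car3 (n = 4), against a median of 0.42 and a range of 0.06 to 1.41 over the 30 probes. A smaller SD was found for 9 of them in the case of Mb and for 11 in the case of Car3.

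Mb and Car3 did not keep a constant ratio. The log2 ratio of the Car3 net value to the Mb net value was −2.21, −1.14, −1.95 and −1.96 on arrays 3, 4, 5 and 6, and −1.27 and −1.72 on arrays 1 and 2. As signals of different probes differ in labelling and length, only the movement of this ratio between arrays is read. Its SD was 0.46 over arrays 3 to 6, and 0.15 without array 4, where Car3 had its highest percent and Mb did not. Among all 435 pairs of the 30 probes the median SD was 0.67, and 128 pairs had a smaller SD than Mb with Car3. Because arrays 1 and 2 form a cluster of their own and 4 arrays remain, no correlation between the genes was computed over all arrays.

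Relative to the summed myosin heavy chain signal the genes differed in how far their ratio moved. Log2 of Car3 over summed myosin was −2.73, −2.73, −2.87 and −2.65 on arrays 3, 4, 5 and 6, a mean of −2.74 ± 0.09 (SD, n = 4). Of 26 probes that passed and are not myosins, none had a smaller SD in this ratio, where the median was 0.51; without array 3 there was 1. Log2 of Mb over summed myosin was −0.52, −1.59, −0.92 and −0.69, a mean of −0.93 ± 0.47 (SD, n = 4), and 10 of the 26 probes had a smaller SD.

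Array 4 had the highest summed myosin share, 16.7%, and it was there that Mb stood lowest against myosin. Without array 4 the SD of Mb over myosin was 0.20, and that of Car3 was 0.11. Without array 5 the Car3 SD was 0.05. On arrays 1 and 2 the Car3 ratio was −2.34 and −2.87 and the Mb ratio −1.06 and −1.15, which gave SDs of 0.20 for Car3 and 0.38 for Mb over all 6 arrays.

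The SD of Car3 was smaller against the sum of the chains than against any single chain. A sum can average out movement of single probes, so this does not show that Car3 followed total myosin. Against Myh1, Myh2, Myh7 and Myh4 singly, the SD of the log2 difference of Car3 was 0.27, 0.29, 0.32 and 0.51 (n = 4). With Myh7 left out of the sum it was 0.20, and 1 of the 26 probes had a smaller one. With Myh1 left out it was 0.18, and with Myh2 or Myh4 left out 0.09 and 0.11. For Mb the corresponding SDs were 0.29 with Myh1, 0.70 with Myh2, 0.62 with Myh7 and 0.57 with Myh4. The ratio to summed myosin was chosen after the values had been seen and carries no test.

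**Figure D3:**
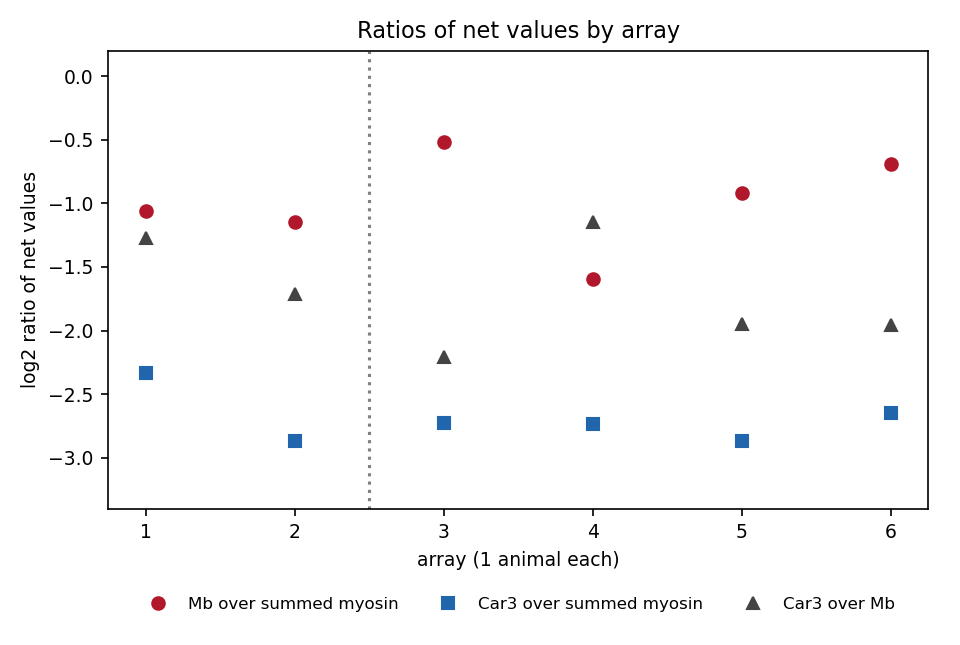
Log2 ratios of net values on each array: Mb over summed myosin (circles), Car3 over summed myosin (squares) and Car3 over Mb (triangles), with arrays 1 and 2 to the left of the dotted line. Car3 over summed myosin stays between −2.87 and −2.65 on arrays 3 to 6, while Mb over summed myosin runs from −1.59 on array 4 to −0.52 on array 3.

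The named probes most like each gene were ranked by the SD of their log2 difference from it over arrays 3 to 6, among the 28 other named probes that passed. For Mb these were Aldoa (0.13), Pgk1 (0.15), Hadh (0.23), Myh1 (0.29) and Myf6 (0.29), against a median of 0.55. Aldoa, the glycolytic enzyme aldolase, took 16.2%, 12.2%, 11.0% and 16.5% of the net signal on arrays 3 to 6. Like Mb, it was higher on arrays 3 and 6 than on arrays 4 and 5. Pgk1, phosphoglycerate kinase of glycolysis, took 0.6%, 0.388%, 0.423% and 0.438%, also highest on array 3. Hadh is an enzyme of fatty acid beta-oxidation, Myh1 the IIx myosin heavy chain, and Myf6 a myogenic transcription factor that binds E-boxes.

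For Car3 the nearest probes were Rps29 (0.21), Cox6a2 (0.26), Myh1 (0.27), Myf6 (0.28) and Myh2 (0.29), against a median of 0.50. Rps29, a protein of the small ribosomal subunit, took 2.70%, 4.49%, 2.82% and 3.06% of the net signal on arrays 3 to 6 and shared with Car3 its highest value on array 4. Myh2, the IIa myosin heavy chain, showed the same peak, with 1.8%, 3.59%, 2.02% and 2.13%. Cox6a2, the muscle form of a cytochrome c oxidase subunit, took 6.10%, 6.04%, 4.98% and 4.83%, with arrays 3 and 4 above arrays 5 and 6. Myh1 and Myf6 were near both genes, so 2 of the 5 were shared.

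These orders rest on 4 arrays, and some of the probes are dim. On these arrays a step of 0.0001 was worth up to 3.23% of the net value of Pgk1, 4.76% of that of Hadh and 5.88% of that of Myf6, against 0.124% for Aldoa. Of the 5 probes nearest to Mb, 3 stayed among the nearest without array 3, 4 or 5 and 2 with all 6 arrays; Aldoa was in each of these sets. Of the 5 nearest to Car3, 2 stayed without array 4 and 3 without array 3 or with all 6 arrays. Without array 4, Mb and Car3 were each among the other's 5 nearest probes.

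**Figure D4:**
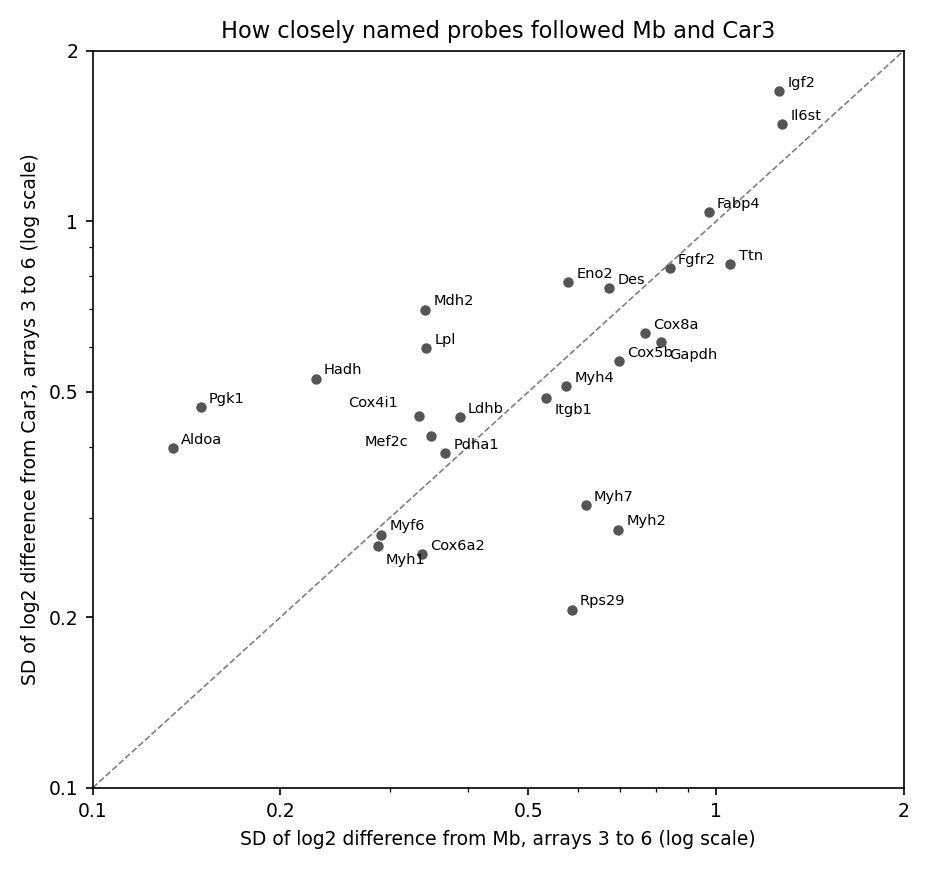
Each point is a named probe that passed, placed by the SD of its log2 difference from Mb (horizontal) and from Car3 (vertical) over arrays 3 to 6, both on log axes; the dashed line marks equal SDs. Aldoa (0.13) and Pgk1 (0.15) lie closest to Mb, and Rps29 (0.21) and Cox6a2 (0.26) closest to Car3.

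Genes of the slow oxidative fibre were largely measured beside the members on arrays 3 to 6, the arrays by which passing was defined. On arrays 1 and 2 no gene of the list exceeded 2.67 times the lowest. There Cox4i1, Cox5b, Cox8a, Ldhb, Mdh2 and Pdha1 lay between 1.1 and 1.7 times. Of the 24 genes of that list 11 were on the array, and 8 of these passed, against 13.6% of all probes. The median over the list of the mean multiple of the lowest was 5.51, and over all 221 probes it was 1.58. Multiples depend on each probe's labelling and length, so these medians describe signals and do not order transcripts. Myh7, the slow myosin heavy chain and the list's one contractile gene on the array, stood at 22.7, 77.0, 28.6 and 59.8 times the lowest on arrays 3 to 6. Cox6a2 was at 21.3 to 70.8 times, Cox5b at 5.06 to 30.8, Cox4i1 at 7.61 to 25.7 and Cox8a at 2 to 9.5 times, all of them subunits of cytochrome c oxidase, which consumes the oxygen that Mb carries. Ldhb, the lactate dehydrogenase subunit of oxidative tissue, lay at 4.67 to 22 times, and the mitochondrial enzymes Mdh2 and Pdha1 at 3.61 to 6.83 and 2.61 to 8.33 times. Fabp3, Cpt1b and Cd36, which take up and oxidise fatty acids, did not pass on every array.

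Genes of oxygen sensing lay near the lowest intensity, as most probes of the array did. None of the 10 oxygen and hypoxia genes on the array passed, where 13.6% of all probes did, and their values ran from 1.0 to 2.33 times the lowest on arrays 3 to 6. Their median of mean multiples was 1.40, close to the 1.58 of all probes, and a count of 0 among 10 is near that share. Hif1a, the oxygen-regulated transcription factor subunit, gave 1.17, 1.44, 1.25 and 1.33 times, and Vegfa, a hypoxia-responsive angiogenic factor, 1.22, 1.56, 1.33 and 2.0 times. At signals this close to the lowest, presence or absence of these transcripts cannot be read. None of the 14 genes for carbon dioxide and acid handling fixed beside Car3, other carbonic anhydrases among them, had a probe named for it.

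The list of regulators of the slow programme also held the myogenic factors Myod1, Myog, Myf5 and Myf6, which are not particular to slow fibres. Of its 8 genes on the array 2 passed, against 13.6% of all probes. The list's median of mean multiples, 1.61, was near the 1.58 of all probes. Mef2c, a MEF2 factor that acts with calcium signals on slow-fibre genes, stood at 4.72, 8.11, 4.58 and 9.67 times the lowest on arrays 3 to 6. Myf6 stood at 2.33, 4.0, 2.42 and 5.0 times. Mef2a, Ppara, Tfam, Myod1, Myog and Myf5 did not pass, with Myod1 between 1.67 and 2.5 times. The E-boxes in the Mb window printed above match the general letters CANNTG, and binding by Myf6 was not tested.

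Markers of fibre types were read beside the tissue label. With 1 slow and 3 fast probes they cannot tell the soleus from another muscle. The slow fibre marker on the array, Myh7, passed, and all 3 fast fibre markers, Myh1, Myh2 and Myh4, passed too. Their summed percent of net signal was 4.07% to 8.56% for the slow marker and 5.82% to 8.18% for the fast ones on arrays 3 to 6. Log2 of Myh7 over the summed fast chains was 0.10, 0.06, −0.37 and −0.92 on arrays 3, 4, 5 and 6, an order that neither Mb nor Car3 followed over the 4 arrays.

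As Car3 is also an adipocyte gene, adipocyte markers were read beside it. Of 9 markers 3 were on the array and 2 passed, Fabp4, a fatty acid binding protein, and Lpl, a lipase; Pparg, the adipocyte transcription factor, stayed between 1.06 and 1.33 times the lowest on arrays 3 to 6. Fabp4 took 0.333%, 0.375%, 1.05% and 0.508% of the net signal on arrays 3, 4, 5 and 6, and was highest on array 5, where Car3 was lowest of the 4. The summed percent of the 3 markers was 0.391% on array 1 and 0.511% on array 2, then 0.716%, 0.638%, 1.49% and 0.842% on the other 4. Their part in the Car3 signal was not tested. None of the 5 endothelial, 2 leukocyte or 3 fibroblast marker probes passed, where 13.6% of all probes did, so these few probes say little about those cell types. Of them the endothelial genes Pecam1 and Cdh5 reached up to 4.58 and 5.33 times on single arrays. The 5 endothelial probes together took 0.483%, 0.350%, 1.38% and 0.669% of the net signal on arrays 3, 4, 5 and 6. They too were highest on array 5, so the Fabp4 peak there was not particular to adipocyte markers. The leukocyte marker Il6 stood at 2.17 and 2.13 times on arrays 1 and 2. For erythrocyte and nerve no marker had a probe named for it.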

How the data were processed

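RNA of 6 arrays, 1 per animal, was analysed from the authors' deposited table of intensity values, linear and positive, with 1 value per probe and array. Per the labels' protocols the label was radioactive; image analysis, background treatment and scaling are not given in the sources used here. Without probes 1M and 1O the deposited values of each array summed to between 0.995 and 0.999, so they are relative to that sum. Gene names came from the platform annotation; the identifiers of both members matched a mouse gene table (GRCm38.p6), and 1 of them, Mb, matched the RefSeq promoter table.

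The lowest intensity of the array over 221 probes was the base, and a probe passed at 2 times it on each of arrays 3 to 6. The variance test used limma 3.58.1 (squeezeVar, robust, following the mean) in R 4.3.3, on log2 values of 197 probes, with Benjamini-Hochberg adjustment at 0.05, and was tested on simulated data. The members and lists were chosen with earlier results of these data known. Named genes were the members, Tnc, the 5 probes nearest to each member, and list members and markers that passed; others were named after their values were seen. Alternatives covered scaling, base, filter and left-out arrays. Signals of different probes were not read as an order of transcript levels. The number of arrays limits precision.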

Additional observations from a re-analysis of the deposited data

How the results depend on the processing

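Mb and Car3 did not pass the variance test under any of the 6 alternatives of scaling, filter or base or without any array. The count of probes that passed it, 4 by limma, was 1 after median-centring (14 at an unadjusted p under 0.05), 0 after quantile normalization (5) and 0 after cyclic loess (9). It was 0 of 30 with net values of arrays 3 to 6 (1). With the lower quartile of signal dropped it was 3 of 147 (15), and with a pseudocount over all probes 5 of 221 (12). With 1 array left out the count ran from 0 to 6. With 1M and 1O kept in the sum, the mean percent of net signal was 1.65% for Mb and 0.436% for Car3, because these spots enter the divisor. With 1 array left out these means ran from 4.21% to 5.70% and from 1.24% to 1.65%, and the mean log2 ratio of Car3 to Mb from −2.04 to −1.68. The SD of that ratio ran from 0.15, without array 4, to 0.56. The number of probes at 2 times the lowest was 5 when all 6 arrays were required and 30 to 47 with 1 array left out. The ratio to summed myosin, the nearest-probe alternatives and the SD of the Car3 to Mb ratio were added after the data were seen. Signals near the lowest intensity limit what arrays 1 and 2 can show. No paired analysis was possible because the samples form 1 group.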

Other observations

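The deposited value of Car3 on array 1 carries 7 decimals. It is the 1 value of 1338 in the table with more than 4. No other sign of different handling was looked for, and the Car3 values of arrays 3 to 6 do not rest on it.

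With each probe identifier taken as a place on the membrane (number as row, letter as column, an assumed layout), the nearest named spots to Mb were Cox4i1, Cox5b, Cpt1b and Cyct, each 1.41 steps away. Cox5b reached up to 30.8 times the lowest and Cox4i1 up to 25.7 times, both on array 6. Around Car3 the nearest spot was Pecam1 at 1.41 steps, at most 4.58 times the lowest. The very bright spots 1M and 1O each lay 9.06 steps from Mb and 22.0 steps from Car3. In this layout the probes for Pole2, Ucp3, Top1, Dgat1 and Tnc lie nearer to 1M and 1O than either member. They enter the sum that divides the net values of both members, so these distances do not clear the percents of an effect of 1M or 1O.

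Igf2, an insulin-like growth factor, and Il6st, the shared receptor subunit of the interleukin 6 family, followed the members least. The SD of the log2 difference over arrays 3 to 6 was 1.26 and 1.28 from Mb and 1.70 and 1.48 from Car3.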
